A study of Homo sapiens with 5 samples.

Results

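Strong ASXL1 peaks found alone were the places in the genome where ChIP-seq with an ASXL1 antibody gave a high-scoring peak and neither FOXK1 nor O-GlcNAc had a listed peak. Members were ASXL1 peaks on chromosomes 1 to 22 and X that had a score of at least 100 and did not overlap a FOXK1 or an O-GlcNAc peak by 1 bp or more. There were 13937 of them, out of 94237 ASXL1 peaks and 194759 peaks in the 3 lists together. They are called lone peaks below. Strong ASXL1 peaks that did overlap another list are called overlapping peaks (17125), and lone ASXL1 peaks with a score below 100 are called weak lone peaks (55861). The members were thus chosen by their ASXL1 score and by the positions of the peaks in all 3 lists, so scores and overlaps are given as a description.

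ChIP-seq uses an antibody to pull down cross-linked chromatin and sequences its DNA, and a peak is a stretch with more sequence tags than a control. All libraries were made from the line Flp-In HEK293 T-REx, derived from human embryonic kidney and fitted with a recombination site for transgenes and a tetracycline repressor; no treatment or transgene is named for any of them. ASXL1 and O-GlcNAc were precipitated from chromatin preparation 63 and called against its input, and FOXK1 was precipitated from preparation 62 and called against that input. Each antibody had 1 library, so no difference below has a replicate check and no test between antibodies was possible. Depth is unknown, and a lone peak is one without a listed partner, not a place shown to lack FOXK1 or O-GlcNAc. For FOXK1, antibody and preparation cannot be told apart.

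ASXL1 is a scaffold protein that binds and activates BAP1, an enzyme that takes ubiquitin off histone H2A. BAP1 complexes also hold the forkhead transcription factors FOXK1 and FOXK2, the cofactor HCFC1 and OGT, the enzyme that places O-GlcNAc on serine and threonine residues of nuclear proteins. Whether the O-GlcNAc peaks came from proteins of these complexes was not tested. The lone peaks are the strong ASXL1 peaks that no peak of the other lists overlaps. Positions are given in hg19 and counted from 1. No gene annotation or sequence of this build was used here, so positions carry no gene names.

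Lone peaks made up 44.9% of the 31062 strong ASXL1 peaks (95% Wilson interval 44.3 to 45.4), against 74.2% among ASXL1 peaks of every score. Intervals throughout cover counting error only, since peaks of 1 library are not independent replicates. The other strong peaks overlapped O-GlcNAc without FOXK1 (10323, 33.2%), both lists (5388, 17.3%) or FOXK1 without O-GlcNAc (1414, 4.55%). The O-GlcNAc list, the longer partner list and from the same chromatin preparation as ASXL1, set most of this division. With O-GlcNAc as the sole partner list, 49.4% of strong ASXL1 peaks would have counted as alone, and with FOXK1 in its place 78.1% would.

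Most lone peaks lay close above the threshold. Their median score was 142.7 (quartiles 114 and 228), against 408 (quartiles 186 and 888) for overlapping peaks. Of the 13937, 7482 scored below 150, 4205 scored at least 200, 1475 at least 400 and 268 at least 1000. The 5 members nearest to the threshold had scores of 100 to 100.03 and the 5 weak lone peaks nearest to it had scores of 99.97 or 99.98, so peaks on either side of it were nearly equal in score.

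The share of ASXL1 peaks found alone fell in steps along the score. It was 71.7% at scores of 100 to 150 (interval 70.8 to 72.5), 45.9% at 200 to 300 (44.4 to 47.4), 14.2% at 600 to 1000 (13.1 to 15.5) and 7.14% at 1000 to 2000 (6.25 to 8.14). Above 2000 it was 6.14% (4.83 to 7.76), and the intervals of these last classes overlapped. Some 64 lone peaks thus remained among the 1043 ASXL1 peaks with the highest scores.

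Width was not part of the rule, although a wider peak has more room to overlap another. Over all strong peaks, lone peaks were narrower, with a median width of 487 bp (interval 480 to 494) against 703 bp (696 to 710). At matched score the order depended on the class. At scores of 100 to 150, which hold 7482 of the members, lone peaks were slightly narrower than overlapping ones, 363 bp (358 to 368) against 395 bp (388 to 402). At 200 to 300 they were wider, 707 bp (690 to 721) against 588 bp (572 to 600). At 1000 to 2000 their median was 1905.5 bp (1694 to 2123) against 975 bp (960 to 996), a ratio of 1.95. Above 2000 it was 3507.5 bp (3197 to 4235) against 1249 bp (1208 to 1300), a ratio of 2.81. In this class 25 of 64 lone and 279 of 979 overlapping peaks were listed at exactly 3100, so their scores could not be told apart.

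**Figure D1:**
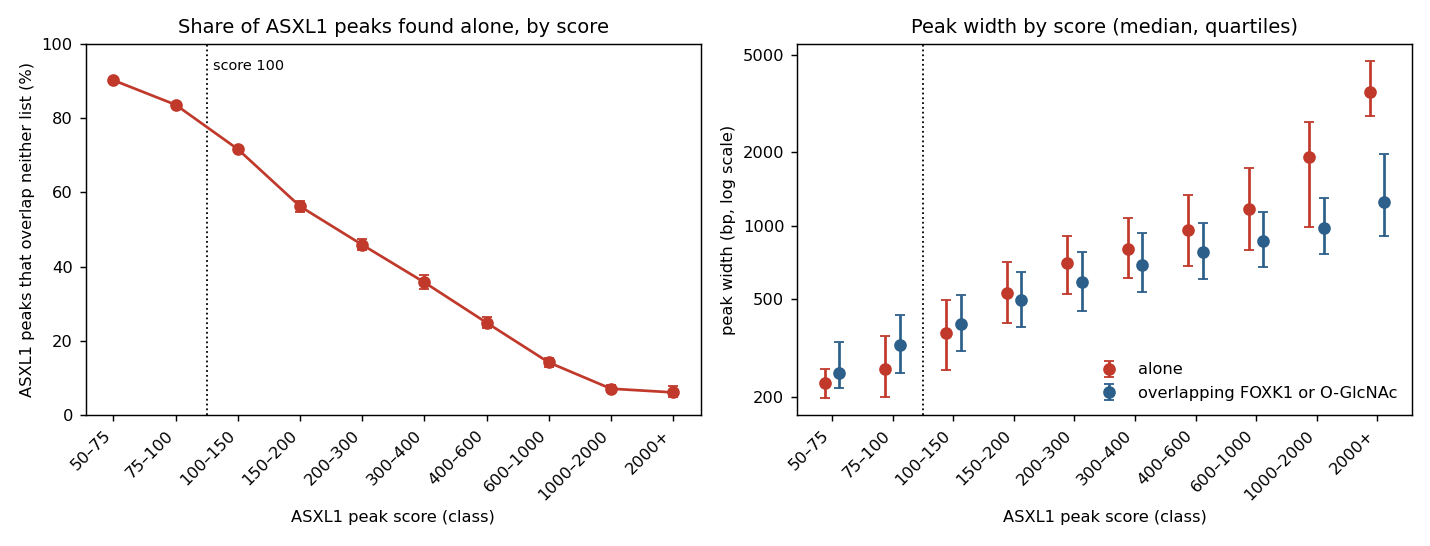
Left, share of ASXL1 peaks on chromosomes 1 to 22 and X that overlapped neither list (%, with 95% Wilson intervals) in 10 score classes, with a dotted line at the score of 100 that the rule used. Right, peak width in bp on a log scale (points are medians, bars the quartiles) for lone and overlapping ASXL1 peaks in the same classes. The share found alone falls from 90.2% to 6.14%, and the lone peaks change from the narrower to the wider group at a score of 150.

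Wide members were few and held a large part of the high scores. In all, 308 lone peaks were at least 2 kb wide (2.21%), and they covered 0.907 Mb of the 8.58 Mb in lone peaks (10.6%). Their median score was 1006 (interval 903 to 1121), against 112 (111 to 113) for the 2989 lone peaks under 300 bp. More overlapping peaks were this wide, 524 (3.06%, 2.81 to 3.33), with a higher median score of 1786 (1637 to 1994). Of all strong peaks at least 2 kb wide, 37.0% were alone (33.8 to 40.4), below the 44.9% over all strong peaks. At scores above 2000, 89.1% of lone peaks were at least 2 kb wide, against 24.4% of overlapping peaks. The 31 peaks with a score of at least 1000 that overlapped FOXK1 and not O-GlcNAc also had a high median width, of 1754 bp (1431 to 2162). Those that overlapped O-GlcNAc and not FOXK1 had 1033 bp (1014 to 1053, n = 2237), those with both lists 1028 bp (1003 to 1062, n = 1366), and lone peaks of the same scores 2209.5 bp (2030 to 2436, n = 268). The interval of the FOXK1 class overlapped that of the lone class, while both stood above the O-GlcNAc classes. At scores of 400 to 1000 this was not so, since the FOXK1 class had a median of 689 bp (621 to 764, n = 137), below the 859 bp (843 to 874) of the class with O-GlcNAc and not FOXK1 and the 1035 bp (996 to 1067) of lone peaks.

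The highest scores among lone peaks belonged to such wide stretches. The top member, on chromosome 8 from 145537458 to 145544899, had a score of 3128.9 and was 7442 bp wide. Another 25 members were listed at exactly 3100, so their order is set by width. All 26 together had widths from 1333 to 8787 bp with a median of 4825 bp, and 24 of them were at least 2 kb wide. Among the 312 overlapping peaks at 3100 or above, the median width was 1850 bp and 46.5% were at least 2 kb wide.

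The next member by this order lay on chromosome 1 from 149806737 to 149815523, was 8787 bp wide and had its nearest O-GlcNAc peak 1845 bp away. On chromosome 19, the stretch from 50357766 to 50365217 (7452 bp) lay 2156 bp from O-GlcNAc. A second stretch on chromosome 1, from 227913603 to 227920985 (7383 bp), lay 1756 bp from O-GlcNAc. All 3 thus had O-GlcNAc close by without overlap. On chromosome 5, the stretch from 670237 to 677589 (7353 bp) was farther away, 15710 bp from O-GlcNAc and 39237 bp from FOXK1. On chromosome 9, the stretch from 139731972 to 139738722 (6751 bp) lay 4495 bp from O-GlcNAc and 242243 bp from FOXK1. On chromosome 22, the stretch from 37963257 to 37969710 (6454 bp) lay 3726 bp from O-GlcNAc and 4916 bp from FOXK1. The last of the 8, on chromosome 12 from 53875382 to 53881485 (6104 bp), lay 2764 bp and 4449 bp from them.

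These 8 stretches had company from their own list. Within 20 kb of their centres there were 3 to 24 other ASXL1 peaks, of which 1 to 7 overlapped another list. There were 1 to 7 O-GlcNAc peaks and 0 or 1 FOXK1 peak in the same space. The strongest O-GlcNAc peak nearby ranged from a score of 52.2 on chromosome 5 to 3100 on chromosome 19. The widest lone peak of all lay on chromosome 5 from 176869399 to 176878740, with 9342 bp and a score of 1955.13, and its nearest O-GlcNAc peak was 2427 bp away.

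**Figure D2:**
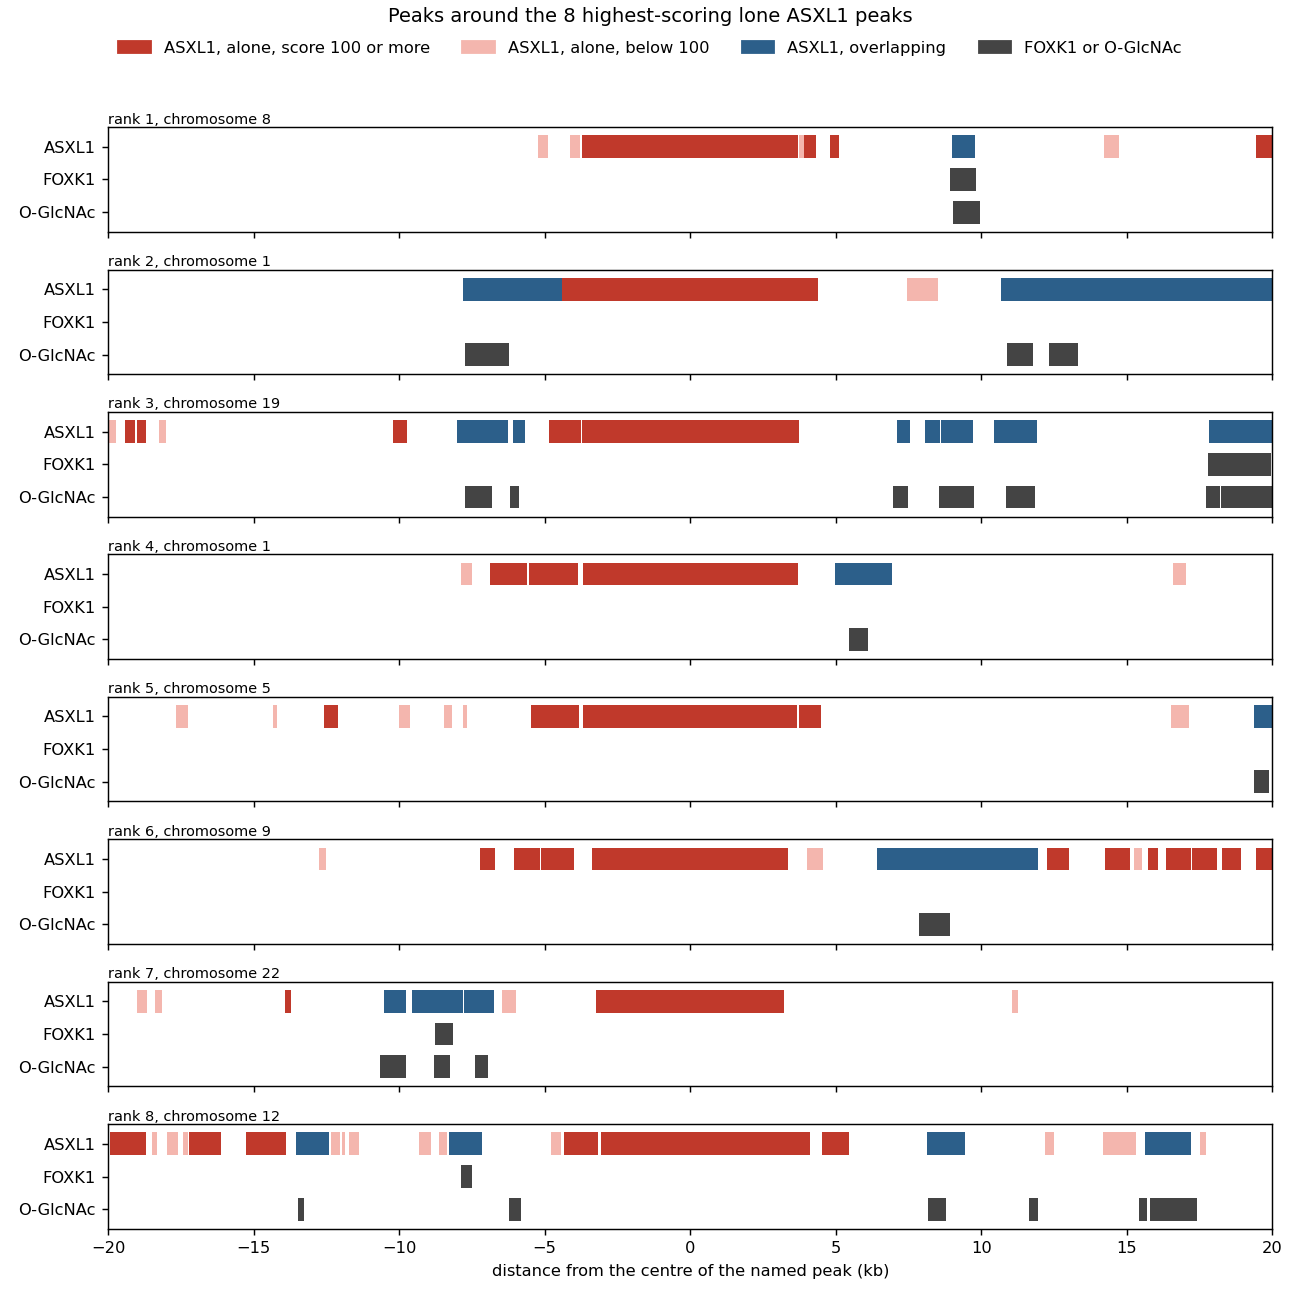
Peaks of the 3 lists as blocks along 20 kb to either side of the centre of each of the 8 highest-scoring lone ASXL1 peaks (horizontal axis, distance in kb), with ASXL1 peaks coloured by whether they were lone with a score of at least 100, lone below 100 or overlapping. Each central stretch of 6104 to 8787 bp stands without a FOXK1 or O-GlcNAc block under it, and each of the 8 maps shows at least 1 O-GlcNAc block to the side.

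Lone peaks often stood next to other ASXL1 peaks. The gap to the nearest other ASXL1 peak of any score had a median of 577 bp (interval 549 to 607), against 1655 bp (1544 to 1759) for overlapping peaks and 4198 bp (4118 to 4295) for weak lone peaks. Another ASXL1 peak lay within 1 kb for 57.9% of lone peaks (57.1 to 58.7), 44.0% of overlapping peaks (43.2 to 44.7) and 27.6% of weak lone peaks (27.2 to 27.9). Within 5 kb the shares were 76.5%, 66.5% and 53.4%. Lone peaks had an ASXL1 peak within 1 kb on both sides in 24.1% of cases (23.3 to 24.8), against 8.33% (7.93 to 8.76) and 6.50% (6.30 to 6.71). The remaining 5870 lone peaks (42.1%) had none within 1 kb on either side.

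The order held in each score class of strong peaks and not below the threshold. At scores of 75 to 100, 35.7% of lone peaks (34.9 to 36.6) and 40.8% of overlapping peaks (38.9 to 42.7) had an ASXL1 peak within 1 kb, and at 50 to 75 the shares were 25.1% and 35.8%. At scores of 100 to 150, 50.5% of lone peaks (49.4 to 51.7) and 41.5% of overlapping peaks (39.8 to 43.3) had an ASXL1 peak within 1 kb. Between 150 and 1000 the share was 64.4% to 67.8% for lone peaks and 41.5% to 45.1% for overlapping peaks in each of the 5 classes. Above 2000 it was 90.6% (81.0 to 95.6) and 58.1% (55.0 to 61.2). Peaks that overlapped FOXK1 and not O-GlcNAc had a lower share than lone peaks at scores of 400 to 1000, 48.9% (40.7 to 57.2, n = 137) against 65.9% (63.1 to 68.5). At scores of at least 1000 the shares were 77.4% (60.2 to 88.6, n = 31) and 79.9% (74.6 to 84.2), with overlapping intervals.

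By width the pattern was not uniform. Among peaks under 300 bp the lone peaks had fewer neighbours, 34.1% (32.4 to 35.8) against 41.5% (38.5 to 44.7). Between 1000 and 2000 bp they had more, 74.4% (72.1 to 76.6) against 44.1% (42.5 to 45.7). At 4000 bp and above, 39 of 41 lone peaks had a neighbour within 1 kb, and the share of 95.1% (83.9 to 98.7) overlapped the interval of 91.1% (83.9 to 95.2) for overlapping peaks.

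**Figure D3:**
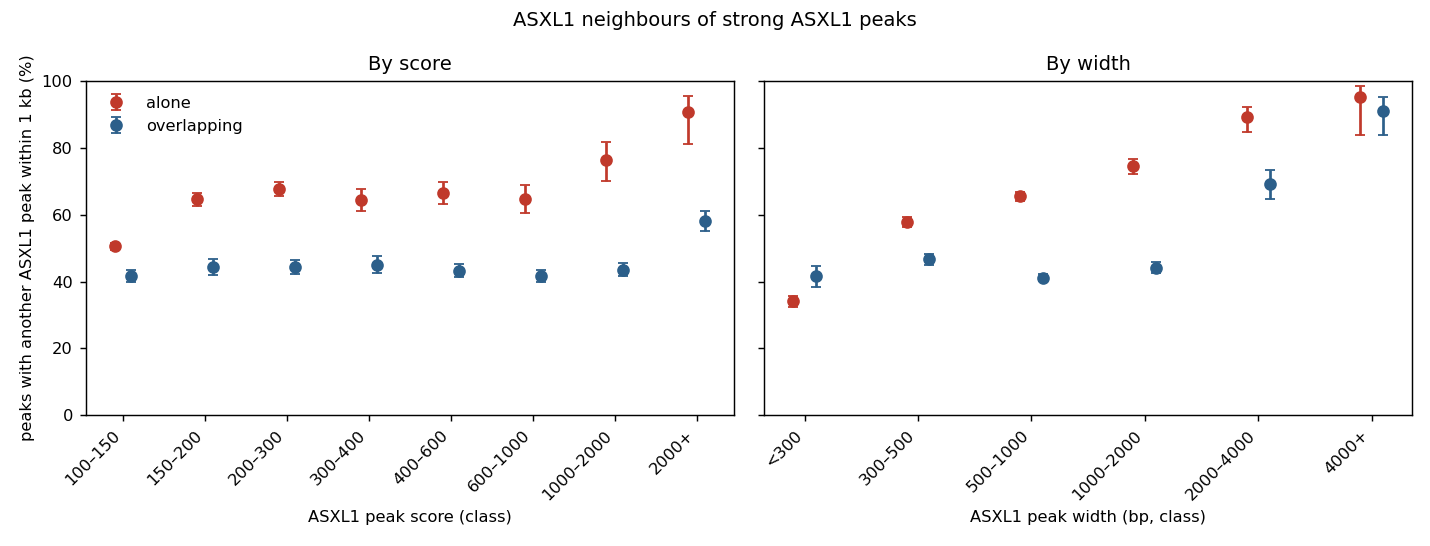
Share of strong ASXL1 peaks with another ASXL1 peak within 1 kb (%, with 95% Wilson intervals), by score class (left) and by width class in bp (right), for lone and overlapping peaks. Lone peaks lie above overlapping ones in every score class from 100, the classes drawn, and below them at widths under 300 bp.

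The neighbours of lone peaks were counted by kind. Of the 8067 lone peaks with an ASXL1 peak within 1 kb, the nearest was another lone strong peak in 39.5% of cases (38.4 to 40.5), a weak lone peak in 42.2% (41.1 to 43.3) and a peak overlapping another list in 18.3% (17.5 to 19.2). For weak lone peaks with such a neighbour the overlapping share was 19.3% (18.6 to 19.9), close to that of lone strong peaks, while 25.8% of all ASXL1 peaks on these chromosomes overlapped another list. Among the same 15395 weak lone peaks with a neighbour within 1 kb, the nearest was a lone strong peak in 23.6% (22.9 to 24.3). For overlapping peaks with a neighbour within 1 kb it was overlapping too in 55.8% (54.7 to 56.9). When ASXL1 peaks with gaps of up to 1 kb were joined into blocks, 20.9% of lone peaks (20.2 to 21.6) fell in a block that also held an overlapping peak, against 8.33% of weak lone peaks (8.10 to 8.56). Those 2912 members were thus lone as peaks but not as blocks. The other 11025 lone peaks lay in 8924 blocks with no overlapping peak, of which 5870 were a single peak and 476 held 5 or more.

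The largest such block lay on chromosome X from 16851533 to 16868300 and held 21 ASXL1 peaks, 11 of them members, with a highest score of 1259. Next came chromosome 7 from 98982951 to 98998970, with 17 ASXL1 peaks and 7 members, and chromosome 1 from 26149966 to 26161403, with 16 and 6.

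On a longer scale, members joined across gaps of up to 10 kb formed 8782 runs. A single member made up 6577 of these (47.2% of members), and 417 runs of 5 or more members held 2844 of them (20.4%). The longest run by count had 22 members on chromosome 22 from 42295709 to 42346002, a stretch of 50.3 kb. Members covered 45.5% of it, 2 of its 33 ASXL1 peaks overlapped another list, and the space held 3 O-GlcNAc peaks and 0 FOXK1 peaks. A run of 17 members on chromosome X from 84501898 to 84530924 covered 47.7% of 29.0 kb and reached a score of 3100. On chromosome 17 from 80032156 to 80068676, 15 members covered 58.8% of 36.5 kb, and 1 of the 22 ASXL1 peaks there overlapped another list.

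Runs differed in how much of the other lists they held. On chromosome 7 from 27173297 to 27233556, 18 members stood among 43 ASXL1 peaks of which 15 overlapped another list, with 16 O-GlcNAc and 8 FOXK1 peaks in 60.3 kb. On chromosome 11 from 760945 to 845587, 19 members stood among 43 ASXL1 peaks of which 6 overlapped, with 7 O-GlcNAc and 0 FOXK1 peaks. On chromosome 1 from 41480119 to 41504336, 16 members stood among 27 ASXL1 peaks of which 2 overlapped. The members of the run on chromosome 7 thus stood among many overlapping peaks, while those of the runs on chromosomes 22 and 17 stood largely by themselves.

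A FOXK1 or O-GlcNAc peak lay within 10 kb of most lone peaks. The nearest FOXK1 or O-GlcNAc peak lay at a median gap of 5170 bp (interval 5012 to 5320), against 6727 bp (6638 to 6818) for weak lone peaks. It lay within 1 kb for 18.5% of lone peaks (17.9 to 19.2) and within 10 kb for 71.0% (70.3 to 71.8), against 13.6% (13.3 to 13.9) and 62.2% (61.8 to 62.6) of weak lone peaks. The nearest was O-GlcNAc for 81.9% of members and FOXK1 for 18.0%; the O-GlcNAc list is the longer of the 2. Median gaps were 5854 bp to O-GlcNAc and 27748 bp to FOXK1. Lone peaks were thus nearer to the other lists than weak lone peaks were.

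**Figure D4:**
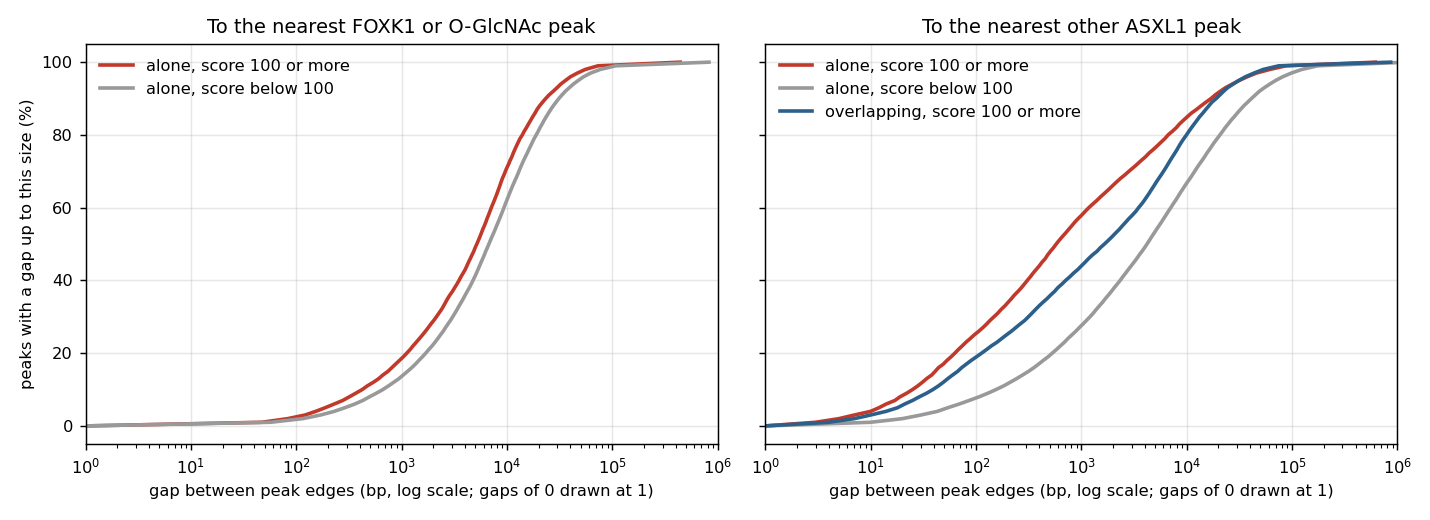
Cumulative share of peaks (%) by the gap in bp (log scale) from edge to edge to the nearest FOXK1 or O-GlcNAc peak (left, lone strong and weak lone ASXL1 peaks) and to the nearest other ASXL1 peak (right, the same and overlapping strong peaks). The curve of lone strong peaks lies to the left of that of weak lone peaks in both panels, with medians of 5170 against 6727 bp on the left and 577 against 4198 bp on the right.

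The O-GlcNAc peak beside a lone peak often had ASXL1 of its own. For the 6326 lone peaks with O-GlcNAc within 5 kb, that nearest O-GlcNAc peak overlapped another ASXL1 peak in 61.4% of cases (60.2 to 62.6), against 39.8% (39.1 to 40.5) for weak lone peaks. Some members share an O-GlcNAc peak. With each O-GlcNAc peak counted once, 57.3% of the 4798 next to lone peaks (55.9 to 58.7) and 36.8% of the 15852 next to weak lone peaks (36.1 to 37.6) overlapped ASXL1, against 27.1% (26.8 to 27.4) over all 78700 O-GlcNAc peaks on these chromosomes. Counted per ASXL1 peak, the median O-GlcNAc score was 74.9 (73.41 to 76.43) next to lone peaks and 70.0 (69.45 to 70.52) next to weak lone peaks. Over all O-GlcNAc peaks it was 67.1 (66.83 to 67.18), so the differences were small but the intervals did not overlap.

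Distance from the other lists went with fewer ASXL1 neighbours and little with score. Of members under 1 kb from FOXK1 or O-GlcNAc, 77.8% (76.1 to 79.3) had another ASXL1 peak within 1 kb. At gaps of 1 to 5 kb and of 5 to 10 kb the share was 59.5%. It was 43.1% (41.5 to 44.7) at 10 to 50 kb, and 33.0% (28.3 to 38.1) among the 351 members 50 kb or more away. These values are linked in part. For the 2280 members with O-GlcNAc within 1 kb, that O-GlcNAc peak overlapped another ASXL1 peak in 66.5% of cases, which puts an ASXL1 peak nearby. How much of the fall with distance came from this was not tested. The median score went from 148 (145 to 152) at under 1 kb to 137 (134 to 140) at 10 to 50 kb. The share with a score of at least 400 was 10.3% (9.20 to 11.6) at under 1 kb and 7.98% (5.58 to 11.3) at 50 kb or more, with overlapping intervals.

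The most remote members were few. The 3 farthest from FOXK1 and O-GlcNAc lay on chromosome 8 from 113275112 to 113275308 (score 109.82), on chromosome 9 from 46112685 to 46113298 (104.75) and on chromosome 21 from 20230010 to 20230299 (641.42). Their gaps to the nearer of the other lists were 440004, 385486 and 333845 bp. The member on chromosome 21 was 290 bp wide with the highest score of the 3, and its nearest ASXL1 peak was 615100 bp away. Members 50 kb or more from the other lists had a median width of 421 bp (367 to 472), against 488 bp (476 to 500) at under 1 kb and 510 bp (497 to 523) at 5 to 10 kb, so width did not fall steadily with distance.

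Members lay on each of the 23 chromosomes counted. Their density followed that of overlapping peaks, from 2.17 per Mb on chromosome 4 to 14.8 on chromosome 19, where overlapping peaks had 3.36 and 18.0 per Mb. Spearman's rho between both densities across the 23 chromosomes was 0.947, given as a description, since the peaks share 1 library. The median width of members was 674 bp on chromosome 19 and 386 bp on chromosome 13, the ends of the range.

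The lone share varied less than the density. It was highest on chromosome 22, at 55.9% (52.5 to 59.3), and lowest on chromosome 4, at 39.2% (36.3 to 42.2). On chromosome 22 lone peaks outnumbered overlapping ones, with 8.86 against 6.99 per Mb. On chromosome X the share was 50.4% (47.3 to 53.5), on chromosome 21 49.6% (44.8 to 54.5) and on chromosome 20 49.5% (46.2 to 52.8). Chromosome 19, with the highest density of members, had a share of 45.3% (43.0 to 47.5), close to the 44.9% over all, although across the 23 chromosomes rho between density of members and lone share was 0.486, values that share the count of members. Chromosome 22 also had the fewest O-GlcNAc peaks per ASXL1 peak, 0.547. Chromosome 19 had nearly the same ratio, 0.566, with its share close to that over all, and chromosome X had 0.976 with a higher share. Across chromosomes rho between this ratio and the lone share was -0.36 (n = 23, a description of lists that enter both values).

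**Figure D5:**
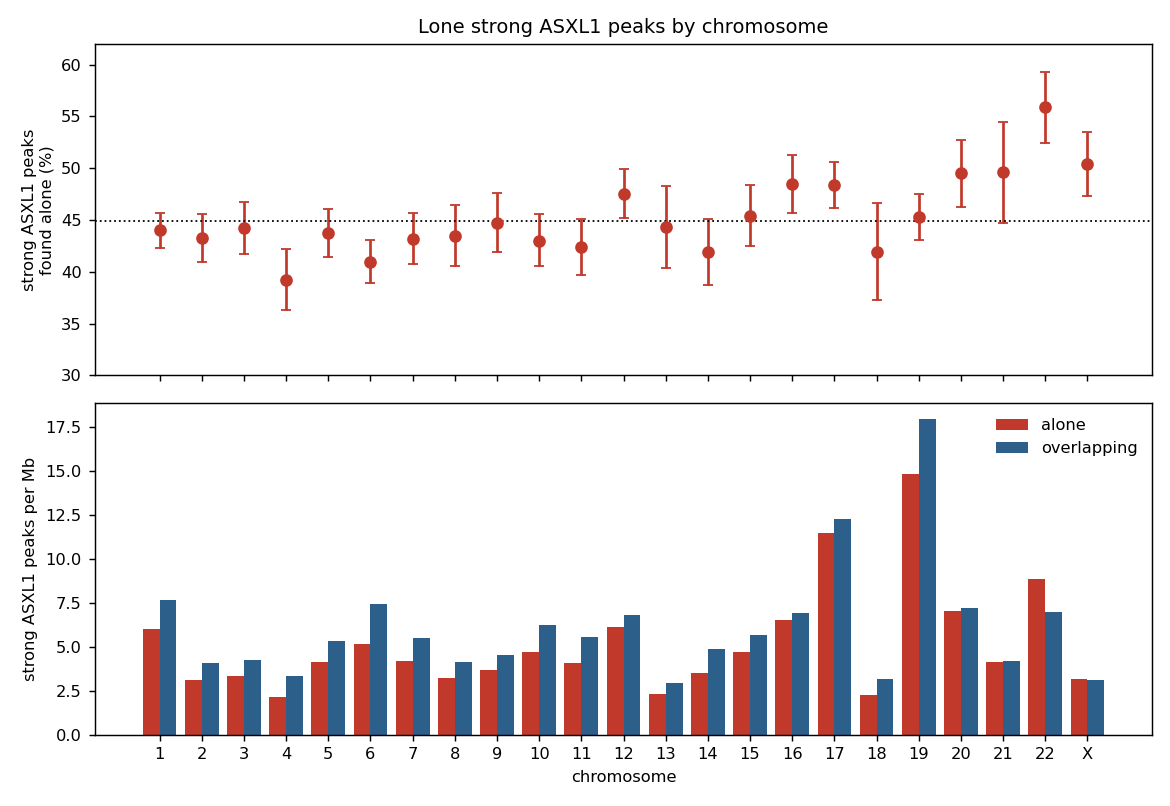
Top, share of strong ASXL1 peaks found alone on each chromosome (%, with 95% Wilson intervals; the axis starts at 30 and the dotted line marks 44.9%, the share over all). Bottom, lone and overlapping strong ASXL1 peaks per Mb by chromosome. Chromosome 22 has the highest share at 55.9%, while chromosome 19 has the highest density at 14.8 per Mb.

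Within chromosomes the members were unevenly spread. Of 3049 windows of 1 Mb, 2252 held a member, with a median of 4 in those, and 427 windows with 10 or more (14.0%) held 54.1% of all members. The window with the most members lay on chromosome 9 from 139000001 to 140000000, where 69 of 93 strong ASXL1 peaks were alone (74.2%) beside 44 O-GlcNAc and 2 FOXK1 peaks. It includes the stretch on chromosome 9 described above. Chromosome 16 had 52 of 81 in its first Mb and 48 of 87 from 2000001 to 3000000. Chromosome 6 from 43000001 to 44000000 had 51 of 74 (68.9%), and chromosome 22 from 42000001 to 43000000 had 47 of 65 (72.3%), including the run of 22 members.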

How the data were processed

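The files were 3 deposited peak lists, 1 library each and not pooled, with a position and a score per peak. The score is that of the authors' peak caller, which the deposited peak names give as MACS. The submitters' processing notes name MACS 1.4, Bowtie2 2.0.0 and hg19, and settings, read filters and depth are not given in the sources used here. Scores began at 50 and were used to filter and rank ASXL1 peaks and to describe peaks within 1 list. The 2 input libraries were not analysed here.

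Gaps were counted from edge to edge, and peaks that touched with a gap of 0 did not overlap. Shares have 95% Wilson intervals and medians have binomial order-statistic intervals (scipy 1.17.1, pandas 2.3.3, Python 3.11.15). Overlap and gap code was tested on simulated data. Chromosome lengths were the highest peak end in the lists. The members and lists were chosen with earlier results of these data known. Named positions were the 8 highest-scoring, 3 widest and 3 most remote members, the 5 on either side of the threshold and the 5 fullest 1 Mb windows. Blocks, runs, score classes, width classes and distance classes were chosen only once the data were known; the blocks and runs named came from those with the most peaks and were picked after their values were seen. Start sites, places in genes, base content and motifs need the sequence or annotation of hg19 and were not run.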

Additional observations from a re-analysis of the deposited data

How the results depend on the processing

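No paired analysis was possible because there was 1 library per antibody, so no library was left out in turn either; depth is unknown, and a deeper FOXK1 or O-GlcNAc library could list partners for lone peaks. The cause of the changes below was not tested beyond what each setting does by construction. The share of ASXL1 peaks found alone was 44.9%; it was 74.2% at all scores, 25.3% at scores of at least 200 and 14.5% at 400 or above. It was 46.3% when 50% of the shorter peak had to overlap, 39.8% when gaps of up to 500 bp counted as shared, and 45.6% with centres within 500 bp. It was 60.0% against partner peaks with a score of at least 100, 49.4% against O-GlcNAc and 78.1% against FOXK1, and 57.4% in the middle 50% of widths. It stayed within its interval without the widest 1% and on chromosomes 1 to 22. In the middle 50% of widths the median score was 122, and at scores of at least 200 the median width was 820 bp. The share with another list within 1 kb was 8.03% when gaps of up to 500 bp counted as shared, 20.1% in the middle 50% of widths, and 49.1% within 5 kb. The share with another ASXL1 peak within 5 kb was 80.1% at scores of at least 200, 74.8% when gaps of up to 500 bp counted as shared, and 57.9% within 1 kb. Chosen after the data had been seen, the width ratio of lone to overlapping peaks at scores of 1000 to 2000 (1.95) was 1.50 against partner peaks with a score of at least 100, 1.20 at scores of 200 to 300 and 2.81 from 2000. The share of members in a block with an overlapping peak (20.9%) was 14.2% with blocks joined at 500 bp and 29.8% at 2000 bp.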

Other observations

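The ASXL1 peaks that overlapped FOXK1 without O-GlcNAc were nearer to lone peaks in score than the other overlapping peaks were, with a median score of 159 (interval 154 to 165) against 142.7 for lone peaks and 455 (442 to 468) for those with O-GlcNAc and without FOXK1. At scores of 200 to 400 they were narrower than lone peaks, 537.5 bp (510 to 558) against 731.5 bp (720 to 745). Another ASXL1 peak lay within 1 kb for 49.7% of them (44.3 to 55.1, n = 330), against 66.8% of lone peaks (65.0 to 68.5, n = 2730). At scores of at least 1000 the shares were 77.4% (60.2 to 88.6) and 79.9% (74.6 to 84.2), with overlapping intervals.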
